A study of Mus musculus with 4 samples.

Results

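The cytochrome P450 enzymes of families 1, 2 and 3 were described in mouse liver 48 h after partial hepatectomy and 48 h after a sham operation. The members were all probe sets, each a group of array probes for 1 transcript, whose platform annotation gave a single gene symbol beginning with Cyp1, Cyp2 or Cyp3 and a lower-case letter. They stood for 43 genes in 14 subfamilies, of 18193 genes named singly on the array, and numbered 52 of 45037 probe sets. The choice used names and no measured value. Total RNA of mature liver from C57BL/6J mice was hybridised to 4 arrays, 2 per group, which the submitters call biological duplicates. Partial hepatectomy removes part of the liver and the remainder regrows, while the sham operation leaves the liver whole. The sources used here do not state the sex, age or number of mice per array. The p-values therefore reflect only how far these arrays lie from each other.

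Cytochrome P450s are haem enzymes of the endoplasmic reticulum that insert an oxygen atom into their substrates, with electrons passed on by P450 reductase and cytochrome b5. Families 1 to 3 hold most of the enzymes that clear drugs and other foreign compounds, and many also hydroxylate steroids or make signalling lipids from arachidonic acid. In mouse liver several are concentrated around the central vein, several differ between the sexes, and receptors for foreign compounds (Ahr, CAR and PXR) induce some of them.

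Values are the authors' signals in arbitrary units, scaled to the same trimmed mean on every array. A signal can be compared between arrays for 1 probe set but not between probe sets. Of the 52 probe sets, 42 of 35 genes passed a filter on dim probe sets and were tested within a limma fit over all 27022 probe sets that passed. For 1 of the 42, that of Cyp1a1, only the sham mean lay above the filter. The other 10 probe sets stood for 8 genes with no tested probe set (Cyp2b13, Cyp2b19, Cyp2c39, Cyp2c65, Cyp2d34, Cyp2j11, Cyp2j13 and Cyp3a16) and for 2 dim probe sets of Cyp1b1. Among them, 5 lay on all arrays under 20.4, called here the bacterial control level. It is the highest signal of 27 bacterial control probe sets chosen from the 64 controls. In liver samples fewer cells of a type and less RNA per cell cannot be told apart.

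The labelled tissue held its defining transcripts: the summed signal of 7 hepatocyte markers came to 104753 and 92977 in sham against 99047 and 91108 after hepatectomy, with 0 of 7 called. All 5 proliferation markers were called higher after hepatectomy, with a summed signal of 6735 to 7488 against 597 to 731. Hepatectomy replicate 1 stood apart. Its summed signal over 5 measured adrenal cortex markers was 12343, against 172 to 198 on the other arrays, where Cyp11a1, Cyp11b1 and Mc2r lay under the bacterial control level. Over 4 measured fat cell markers it was 2286, against 277 on hepatectomy replicate 2 and 150 and 67 in sham. Adipoq and Lep were above sham on both hepatectomy arrays, with Adipoq at 574 and 56.3 against 4.02 and 6.29. Of 6 neutrophil markers S100a8 and S100a9 were called higher, and the summed signal was 9861 and 3558 after hepatectomy against 462 and 370, while Ngp, Camp and Mpo lay under the bacterial control level on all arrays. Also called higher were Col1a1 (6.22-fold), Col3a1 (3.07-fold), Marco (10.9-fold) and Fabp2 (1.98-fold). Col1a1 and Col3a1 belong to the stellate cell and fibroblast list, where 2 of 6 values (Lrat and Dcn) lay below 0. Marco is of the macrophage list, whose median log2 fold change was 0.08 with 3 of 6 values below 0. Fabp2 is of the gut list and read 5143 and 5611 in sham, while Vil1, Cdx1 and Muc2 were too dim to test. The 4 measured bile duct markers had a median log2 fold change of 0.84 with 0 called. The part of other cell types in the P450 results was not tested, and values without replicate 1 are given beside some of the members.

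Of the 35 tested P450 genes 2 were called (5.71%), 1 in each direction (2.86% each). Cyp2d22, the mouse Cyp2d member often set beside the main human drug-metabolising enzyme of that subfamily, fell, with a ratio of hepatectomy to sham of 0.529. Cyp2c38, an arachidonic acid epoxygenase, rose 3.11-fold. No gene of family 1 or family 3 was called. Over all 12560 tested genes 4.67% were called, 3.57% higher and 1.09% lower. Counted over probe sets, 1 of 42 was higher (2.38%) and 2 were lower (4.76%) by limma at an adjusted p under 0.05. Across all 27022 tested probe sets 3.39% were called, 2.51% higher and 0.877% lower, which for the increases is close to the share among the members.

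Short of the threshold, differences lay mostly below 0. The log2 fold change was negative in 31 of 42 probe sets (73.8%, against 49.9% of all tested), and the median was -0.29, against 0.001 over all. Both hepatectomy arrays lay under both sham arrays in 24 of the 42 (57.1%), where 23.3% of all probe sets did so. The reverse held in 4 of 42, against 24.4% of all. Of the 42, 19 had an unadjusted p under 0.05 (45.2%, against 16.6% of all). Taken once per gene, 25 of 35 values were negative with a median of -0.18, against 47.1% and 0.025 over all genes. Of these 35 genes 18 were lower without overlap (51.4%, against 23.2% of all) and 4 were higher (against 28.1%). Paralogs of a subfamily share sequence, so members are not independent of each other. Of the 52 probe sets, 8 carry an identifier suffix for probes that may match several transcripts (4 with the letter s and 4 with the letter a).

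**Figure D1:**
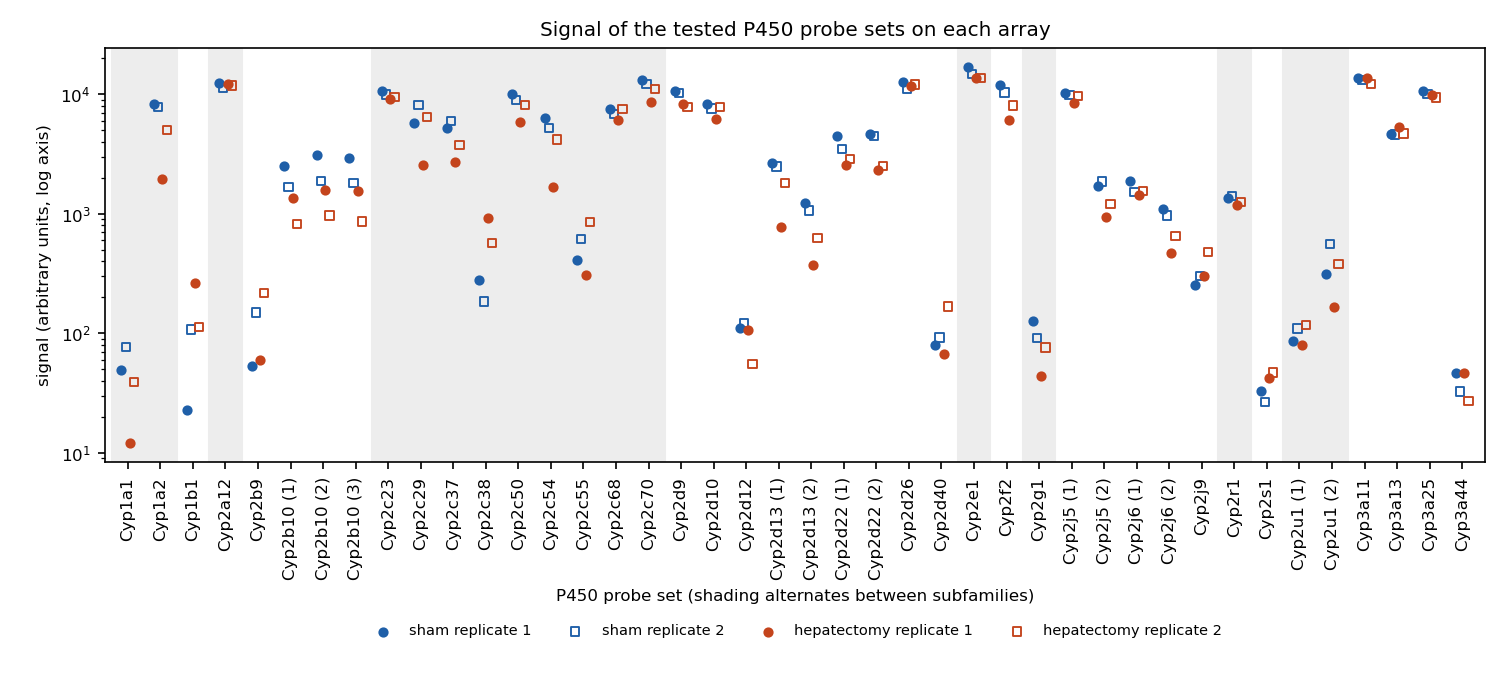
Signal (log axis, arbitrary units) of the 42 tested P450 probe sets on each of the 4 arrays, with subfamilies marked by alternating shading and several probe sets of a gene numbered in the order of their identifiers. For Cyp2c38 both hepatectomy arrays lie above both sham arrays, for Cyp2d22 both lie below, and for the brightest Cyp2e1, Cyp2a12 and Cyp3a probe sets the 4 points nearly coincide.

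The Cyp2c subfamily held both the largest increase and several of the larger decreases, within 1 gene cluster. In the RefSeq annotation of assembly GRCm38.p6 the genes on chromosome 19 follow the order Cyp2c55, Cyp2c65, Cyp2c29, Cyp2c39, Cyp2c38, Cyp2c68, Cyp2c37, Cyp2c54, Cyp2c50, Cyp2c70 and Cyp2c23, with genes outside the members left out. The RefSeq promoter windows, 250 bases before to 50 after the start site, are printed for the gene that rose, for Cyp2c29, which lies on the far side of Cyp2c39, and for the most alike pair of member windows in the cluster, Cyp2c37 and Cyp2c50. Capitals mark TATAAA and TGTTTAC, the letters of a TATA box and of a Foxa site, searched on both strands.
Cyp2c38 (chr19:39463026-39463325, minus strand): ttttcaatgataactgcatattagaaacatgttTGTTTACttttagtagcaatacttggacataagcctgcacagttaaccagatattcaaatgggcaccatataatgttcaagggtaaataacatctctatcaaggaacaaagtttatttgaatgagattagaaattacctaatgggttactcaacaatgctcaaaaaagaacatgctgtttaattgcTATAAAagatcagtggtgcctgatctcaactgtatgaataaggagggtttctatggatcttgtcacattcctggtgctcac
Cyp2c29 (chr19:39286835-39287134, plus strand): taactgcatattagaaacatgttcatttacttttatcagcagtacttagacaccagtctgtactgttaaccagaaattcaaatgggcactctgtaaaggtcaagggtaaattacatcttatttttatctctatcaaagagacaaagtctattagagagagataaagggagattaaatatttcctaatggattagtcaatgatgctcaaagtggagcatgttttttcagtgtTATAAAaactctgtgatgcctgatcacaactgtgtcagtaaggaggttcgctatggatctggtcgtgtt
Cyp2c37 (chr19:39992174-39992473, plus strand): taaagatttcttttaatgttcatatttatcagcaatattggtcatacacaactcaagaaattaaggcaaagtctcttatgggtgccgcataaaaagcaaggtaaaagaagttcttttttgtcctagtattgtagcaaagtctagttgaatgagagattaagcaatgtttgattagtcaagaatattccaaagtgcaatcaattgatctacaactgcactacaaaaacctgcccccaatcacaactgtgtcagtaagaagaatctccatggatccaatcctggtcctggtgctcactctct
Cyp2c50 (chr19:40089429-40089728, plus strand): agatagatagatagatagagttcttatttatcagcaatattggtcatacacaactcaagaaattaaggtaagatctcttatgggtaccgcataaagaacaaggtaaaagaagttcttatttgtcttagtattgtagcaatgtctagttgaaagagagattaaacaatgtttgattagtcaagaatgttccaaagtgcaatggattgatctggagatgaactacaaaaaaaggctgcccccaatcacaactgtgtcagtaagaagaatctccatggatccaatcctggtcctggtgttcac

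Aligned end to end, the windows of Cyp2c38 and Cyp2c29 were identical over 70.8% of the alignment, and those of Cyp2c37 and Cyp2c50 over 86.6%. TATAAA began 31 bases before the start site in Cyp2c38 and 19 before it in Cyp2c29, and was not found in the other pair. TGTTTAC began 217 bases before the start in Cyp2c38 and was not found in the other three windows. Over the 38 windows listed for 35 of the 43 member genes, TATAAA was present in 47.4%, against 13.6% of all 32851 windows in the table. TGTTTAC was present in 18.4%, against 3.65%. The letters CAAAGTCCA of an HNF4 site were in 13.2% against 0.475%, and GCGTG, the core of the Ahr response element, in 21.1% against 32.4%. TTATGTAA or TTACGTAA, the D box bound by Dbp, was in none of the 38 and in 1.06% of all. A letter match is a description and does not show binding.

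Cyp2c38 gave a signal of 276 and 184 in sham against 914 and 566 after hepatectomy. The groups did not overlap, and the log2 fold change was 1.63 ± 0.30 (SE, n = 2 arrays per group; limma adjusted p = 0.028). Leaving out a sham array ended the call (adjusted p = 0.0689 without replicate 1 and 0.151 without replicate 2), while without hepatectomy replicate 1 the value was 1.29 (adjusted p = 0.0357). Its neighbour Cyp2c39 was too dim to test, at 15.6 and 5.82 in sham and 26.5 and 21.9 after hepatectomy.

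The 4 Cyp2c genes next to each other in that order, Cyp2c37, Cyp2c54, Cyp2c50 and Cyp2c70, were each lower on both hepatectomy arrays, and none was called. Cyp2c23, last in the order, was also lower on both, by a smaller margin given below. Cyp2c37, an arachidonic acid hydroxylase, measured 5217 and 5975 in sham against 2707 and 3774 (-0.80 ± 0.18, adjusted p = 0.0535). Cyp2c54 measured 6265 and 5215 against 1656 and 4168 (-1.12 ± 0.36, adjusted p = 0.163). Without hepatectomy replicate 1 its value was -0.45. Cyp2c50 measured 9956 and 8930 against 5886 and 8090 (-0.45 ± 0.16, or -0.22 without hepatectomy replicate 1). Cyp2c70, which makes the muricholic acids of mouse bile, measured 13255 and 12154 against 8660 and 11018 (-0.38 ± 0.13, or -0.20 without that array).

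Cyp2c29, an abundant enzyme of the pericentral zone, overlapped between groups, with 5721 and 8147 in sham against 2565 and 6410 (-0.75 ± 0.37, adjusted p = 0.37). Without hepatectomy replicate 1 its value was -0.09. Cyp2c23, an arachidonic acid epoxygenase also called Cyp2c44, measured 10628 and 9956 against 9033 and 9474 (-0.15 ± 0.11). Cyp2c68 and Cyp2c55 had log2 fold changes of -0.08 ± 0.14 and 0.02 ± 0.44, and Cyp2c65 was not tested. Without hepatectomy replicate 1 Cyp2c55 stood at 0.75. Over the 9 tested Cyp2c genes the median was -0.38, and -0.12 without hepatectomy replicate 1.

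In the Cyp2d subfamily 1 of 7 tested genes was called lower (1.09% of all genes), and 4 of 7 were lower on both hepatectomy arrays (23.2% of all genes). Cyp2d22 was measured by a pair of probe sets. The brighter gave 4655 and 4445 in sham and 2309 and 2500 after hepatectomy, a log2 fold change of -0.92 ± 0.13 (adjusted p = 0.0102). The other gave 4488 and 3495 against 2538 and 2873 and missed the threshold (-0.55 ± 0.16, adjusted p = 0.132). In both the groups were apart, and the brighter probe set was also called without hepatectomy replicate 1 (-0.86, adjusted p = 0.0135). The call was lost without sham replicate 1 (adjusted p = 0.0873) or sham replicate 2 (adjusted p = 0.0544).

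Cyp2d13, which RefSeq lists as a transcribed pseudogene, had similar negative values on both of its probe sets. The dimmer one was called lower, from 1234 and 1063 to 372 and 627 (-1.23 ± 0.26, adjusted p = 0.0479). The brighter one, which stands for the gene in the counts, went from 2666 and 2489 to 771 and 1812 without a call (-1.12 ± 0.34, adjusted p = 0.141). Its value was -0.51 without hepatectomy replicate 1 and -1.73 without replicate 2, where it was called (adjusted p = 0.000182). Both sham arrays exceeded both hepatectomy arrays in each. For the dimmer one, the adjusted p was 0.322 once sham replicate 1 was left out and 0.156 once sham replicate 2 was, so either array ended the call.

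The male-predominant steroid hydroxylase Cyp2d9 measured 10725 and 10220 in sham and 8249 and 7803 after hepatectomy, apart in every array but not called (-0.38 ± 0.11, adjusted p = 0.107). Cyp2d26 differed by 0.01 ± 0.11, from 12548 and 11096 to 11770 and 12077, with a 95% confidence interval of -0.23 to 0.26. Cyp2d10, at 8258 and 7584 in sham against 6254 and 7794, overlapped between groups (-0.18 ± 0.14). Cyp2d12 (-0.54 ± 0.36) and Cyp2d40 (0.30 ± 0.42) were dim and not called. Without hepatectomy replicate 1 these last values were -0.97 for Cyp2d12 and 0.90 for Cyp2d40. Cyp2d34 lay under the bacterial control level throughout.

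**Figure D2:**
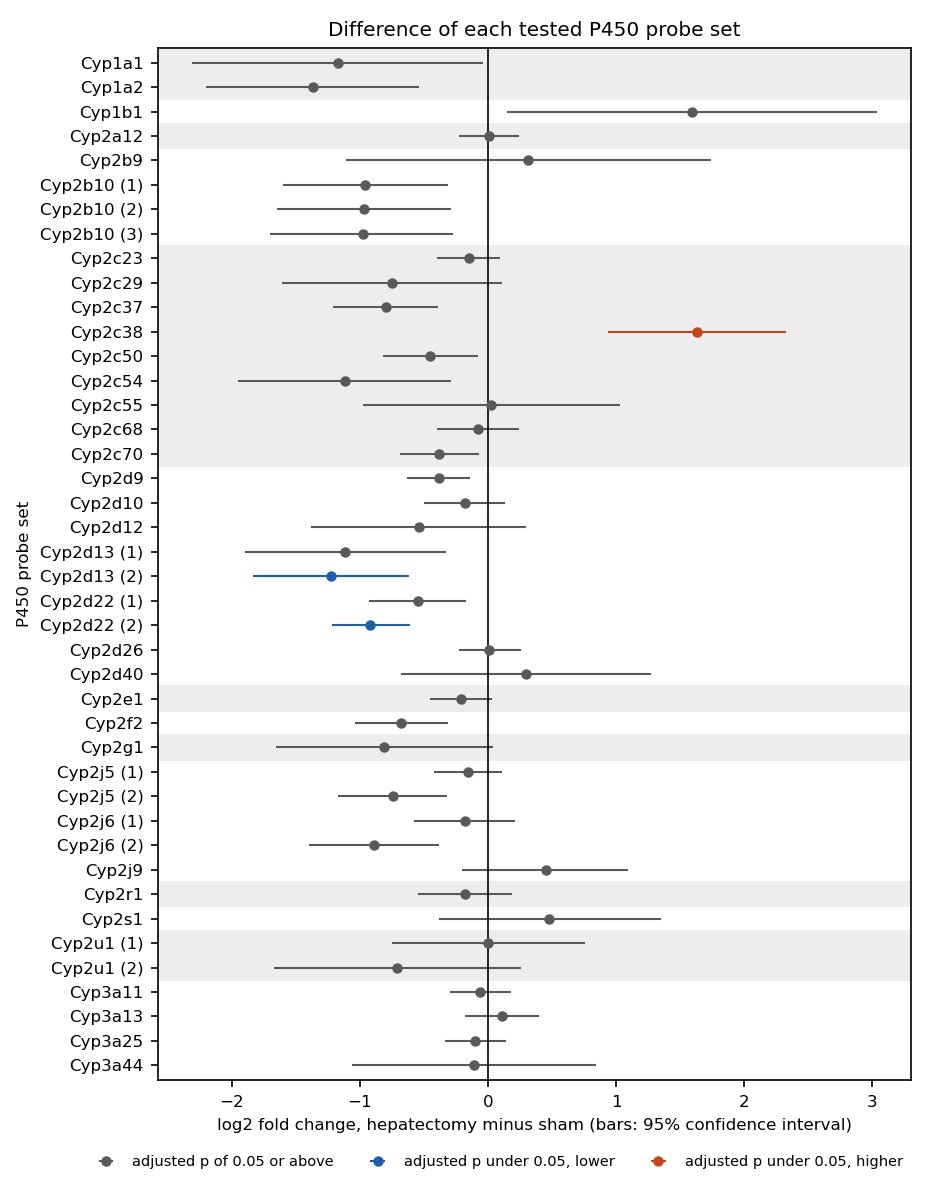
Log2 fold change (hepatectomy minus sham) of the 42 tested P450 probe sets with 95% confidence intervals from limma, 2 arrays per group, grouped by subfamily and coloured by call. Cyp2c38 stands at 1.63, the called probe sets of Cyp2d22 and Cyp2d13 at -0.92 and -1.23, and the intervals of Cyp3a11, Cyp3a25 and Cyp2a12 are narrow and include 0.

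In family 1 no gene was called, and the hepatectomy arrays lay far apart for all 3 genes. Cyp1a2, the pericentral enzyme that oxidises caffeine and aromatic amines, measured 8344 and 7830 in sham and 1940 and 5010 after hepatectomy (-1.37 ± 0.36, adjusted p = 0.0934). The hepatectomy arrays lay 2.58-fold from each other, and both lay under the sham arrays. Without replicate 1 the value was -0.69 and was called (adjusted p = 0.0365), and without replicate 2 it was -2.05 (adjusted p = 2.28e-05). Cyp1a1, the most Ahr-inducible member, was dim, at 49.4 and 76.8 in sham against 11.9 and 38.8 (-1.17 ± 0.49, adjusted p = 0.284). Only its sham mean lay above the filter, and the reading of 11.9 on hepatectomy replicate 1 lay under the bacterial control level of 20.4. Without hepatectomy replicate 1 its value was -0.57, and without replicate 2 it was -1.78.

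Cyp1b1, a steroid and hydrocarbon hydroxylase found mostly outside hepatocytes, pointed the other way. Its tested probe set read 22.7 and 107 in sham and 264 and 112 after hepatectomy (1.59 ± 0.63, adjusted p = 0.253). The highest reading was on the array with adrenal and fat markers, and without that array the value was 1.0. The sham arrays moved it further, to 0.65 without sham replicate 1 and 2.53 without sham replicate 2. The groups stood barely apart, at 107 against 112, and 2 further Cyp1b1 probe sets were too dim to test.

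The Cyp2b subfamily was led by Cyp2b10, the classical target of phenobarbital and CAR. Its brightest probe set measured 3122 and 1880 in sham against 1583 and 963 (-0.97 ± 0.29, adjusted p = 0.141). The other probe sets gave -0.96 and -0.98, so all 3 had a similar value and none was called. Here replicate 1 was the higher of the hepatectomy arrays, and without it the value was -1.32 (adjusted p = 0.0112). The female-predominant Cyp2b9 varied as much within groups as between them, with 53.4 and 149 against 59.0 and 216. Its log2 fold change was 0.31 ± 0.62, or 1.18 without hepatectomy replicate 1. Cyp2b13 and Cyp2b19 lay under the bacterial control level on all arrays.

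Cyp2a12, a steroid hydroxylase of mouse liver, was not called and read 12434 and 11401 in sham against 12115 and 11814 (0.01 ± 0.10, 95% confidence interval -0.23 to 0.24). A further bright probe set, annotated to several Cyp2a genes together and therefore outside the members, fell from 17083 and 13469 to 5366 and 8767 (-1.14 ± 0.22, adjusted p = 0.0321). No single gene is named from it.

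Cyp2e1, which oxidises ethanol and paracetamol, measured 16862 and 14710 in sham and 13576 and 13714 after hepatectomy. The groups were apart by a small margin, with a log2 fold change of -0.21 ± 0.10 (adjusted p = 0.381) and an interval of -0.45 to 0.03. Cyp2f2, the naphthalene-activating enzyme of the periportal zone, measured 12030 and 10313 against 6029 and 8064 (-0.68 ± 0.16, adjusted p = 0.063), or -0.47 without hepatectomy replicate 1. Cyp2g1, best known from olfactory tissue, was dim at 126 and 90.7 against 43.4 and 75.6 (-0.81 ± 0.37, or -0.46 without hepatectomy replicate 1).

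Probe sets of the Cyp2j epoxygenases did not give 1 answer per gene. For Cyp2j5 the brighter probe set measured 10258 and 9871 in sham against 8419 and 9693 (-0.16 ± 0.11), while the dimmer measured 1710 and 1864 against 937 and 1207 (-0.74 ± 0.18, adjusted p = 0.0772). For Cyp2j6 the pair gave -0.18 ± 0.17 and -0.89 ± 0.22 (adjusted p = 0.67 and 0.0775), the second from 1099 and 967 to 467 and 653. Cyp2j9 measured 251 and 302 against 299 and 477 (0.45 ± 0.28). Cyp2j11 and Cyp2j13 were not tested. More widely, the 10 tested member probe sets with a sham mean above 10000 had log2 fold changes from -0.68 to 0.01 and 0 calls. The probe set of several Cyp2a genes, outside the members, had a sham mean of 15276 and was called lower at -1.14. Whether bright probe sets register less of a change was not tested.

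Among the single-gene subfamilies, Cyp2r1, a vitamin D 25-hydroxylase, measured 1356 and 1406 in sham against 1187 and 1253 (-0.18 ± 0.16). Cyp2s1 was dim, at 32.5 and 26.4 against 42.4 and 46.7 (0.48 ± 0.37). The fatty acid hydroxylase Cyp2u1 had probe sets at -0.71 ± 0.42 (310 and 554 against 164 and 380) and 0.00 ± 0.33, and in both the groups overlapped. The first was -0.12 without hepatectomy replicate 1, -1.30 without replicate 2 (adjusted p = 0.0433) and -0.30 without sham replicate 2.

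Family 3, which in the mouse handles a large share of drug oxidation and testosterone hydroxylation, had no called gene and small differences in its bright members. Cyp3a11, the main PXR target, measured 13791 and 13175 in sham against 13614 and 12240 (-0.06 ± 0.10). Its 95% confidence interval ran from -0.30 to 0.18. Cyp3a25 measured 10599 and 10068 against 9887 and 9401 (-0.10 ± 0.10), and Cyp3a13 measured 4665 and 4588 against 5311 and 4689 (0.11 ± 0.13). Female-predominant Cyp3a44 was dim and overlapped (-0.11 ± 0.41), and Cyp3a16 was not tested.

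The hepatectomy arrays differed from each other more among the P450s than among other probe sets. The median absolute log2 difference between them was 0.477 over the 42 members and 0.273 over all tested probe sets, while between the sham arrays it was 0.198 and 0.234. Replicate 1 was lower than replicate 2 in 30 of the 42, whereas over all tested probe sets replicate 2 was the lower in 54%. Among bright members, Cyp1a2, Cyp2c29, Cyp2c54 and the brighter Cyp2d13 probe set read 2.35- to 2.58-fold lower on replicate 1, whereas Cyp2b10 and Cyp2c38 read higher there. Without replicate 1, 6 member probe sets were called lower and 1 higher, with a median of -0.17, where 1.3% of all probe sets were lower and 2.52% higher. Without replicate 2, 13 were lower and 1 higher, with a median of -0.45, where 2.72% of all were lower and 4.73% higher. On replicates 1 and 2 the summed signal was 12343 and 179 for the adrenal cortex list and 2286 and 277 for the fat cell list. For the neutrophil list it was 9861 and 3558, and for the hepatocyte list 99047 and 91108. Lep of the fat cell list read 22.2 and 22.6. Whether any of these bears on the P450 values was not tested.

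**Figure D3:**
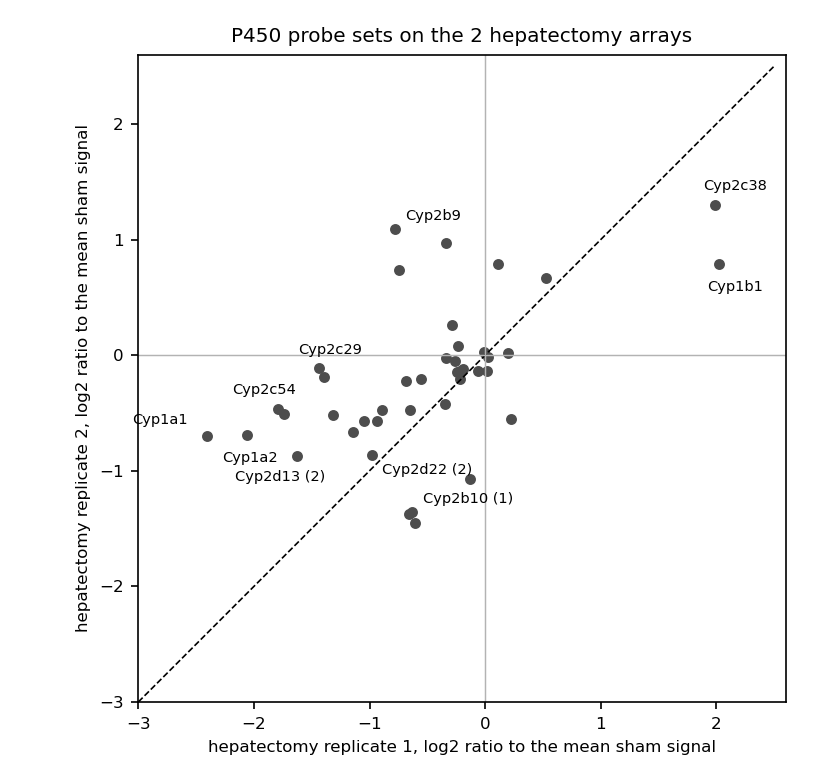
Log2 ratio of each tested P450 probe set to its mean sham signal, on hepatectomy replicate 1 (x axis) and replicate 2 (y axis), with equality dashed. Points above the line read lower on replicate 1, as 30 of 42 do, and Cyp2d22 lies close to the line. Over all tested probe sets replicate 2 was the lower in 54%.

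Lists of P450s that share a zone, sex or regulator were described by counts. All 6 measured P450s of the pericentral zone (Cyp2e1, Cyp1a2, Cyp2c29, Cyp2c37, Cyp2c50 and Cyp3a11) had negative values, as 47.1% of all genes did. Their median was -0.60 with 0 called, Cyp3a11 was at only -0.06, and the periportal Cyp2f2 stood at -0.68. The remaining gene of the pericentral list, a Cyp2a gene, shares its probe set with a female-predominant paralog and is not counted. That probe set was called lower (-1.14 ± 0.22, limma adjusted p = 0.0321), and no single gene is named from it. Without hepatectomy replicate 1, Cyp2c29, Cyp2e1 and Cyp2c50 were at -0.09, -0.20 and -0.22. Cyp2c37, Cyp1a2 and Cyp2f2 were then at -0.56, -0.69 and -0.47. Of 4 CAR and PXR targets 0 were called, with a median of -0.40. Of 3 Ahr targets 0 were called: Cyp1a2 and Cyp1a1 had negative values, and Cyp1b1 a positive one, as given above. Among 4 measured female-predominant genes 2 were tested and 0 called.

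Genes that supply these enzymes with electrons and haem were not called. This held for 4 of 4 tested electron transfer partners, with a median of -0.19, and Cyb5a, which encodes cytochrome b5, measured 14406 and 13385 in sham against 13850 and 13186 (-0.04 ± 0.10). P450 reductase was not analysed here. Of 11 measured genes of haem synthesis and breakdown 0 were called, with a median of -0.03. Alas1, the rate-limiting enzyme of haem synthesis, measured 10738 and 9720 against 8807 and 11411 (-0.03 ± 0.14). Hmox1, which degrades haem, stood at 515 and 469 against 2171 and 752 and was not called (1.37 ± 0.42, adjusted p = 0.145).

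Of 25 tested transcriptional regulators 1 was called higher and 1 lower, where 3.57% and 1.09% of all genes were. Their median was -0.33 with 19 negative values, against 0.025 and 47.1% negative over all genes. Dbp, a clock-driven activator of several P450 genes, fell from 4145 and 4848 to 1487 and 2218 (-1.30 ± 0.20, adjusted p = 0.0143). Its relatives Tef (-0.69 ± 0.16, adjusted p = 0.0599) and Hlf (-0.80 ± 0.22, adjusted p = 0.1) did not pass. Cux2, a female-predominant repressor of male-biased genes in mouse liver, rose from 75.4 and 79.7 to 425 and 211 (1.84 ± 0.36, adjusted p = 0.0335).

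The receptors themselves showed no call. Ahr measured 1918 and 2114 in sham against 1876 and 1626 (-0.20 ± 0.16). Nr1i3, which encodes CAR, measured 2982 and 2370 against 2353 and 3224 (0.05 ± 0.19). Nr1i2, which encodes PXR, measured 496 and 505 against 503 and 742 (0.28 ± 0.24). Hnf4a, a main activator of hepatocyte genes, measured 12608 and 11720 against 11559 and 10740 (-0.13 ± 0.10). Cebpa, another such activator, came close to the threshold at -0.54 ± 0.12 (adjusted p = 0.0547).

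**Figure D4:**
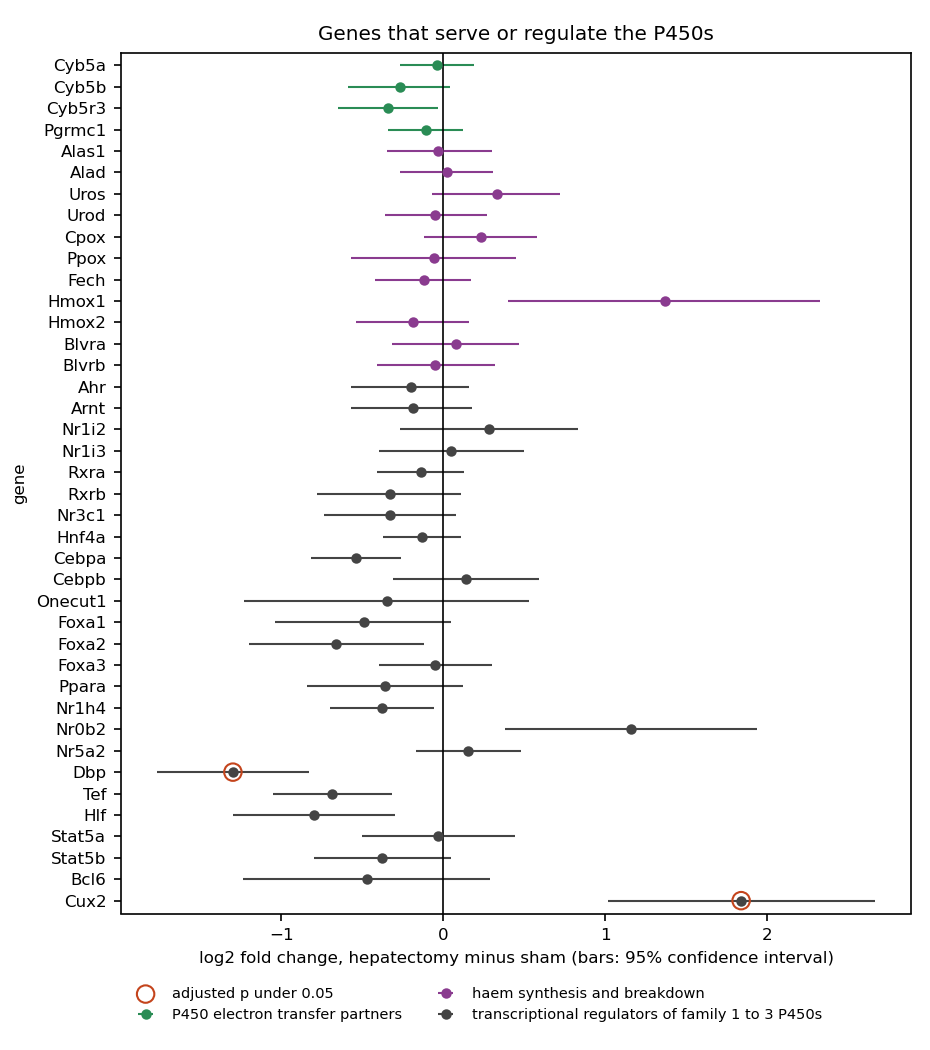
Log2 fold change (hepatectomy minus sham) with 95% confidence intervals for tested electron transfer partners, haem genes and transcriptional regulators, 2 arrays per group. Only Dbp at -1.30 and Cux2 at 1.84 are ringed as called, and Nr1i2, Nr1i3 and Ahr have intervals that include 0.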

How the data were processed

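The authors deposited 1 intensity (signal) per probe set and array on a linear scale, and the submitters' processing notes name GCOS 1.4. After trimming 2% of values at each end every array had a mean of 500. Batches could not be tested, since the sources used here do not state scan dates, detection calls or software settings. From 45101 probe sets 64 controls were left out. Signals were turned to log2 after adding 8.57, the 20th percentile of all values, which understates changes of dim genes. Probe sets with a mean log2 value over the 4 arrays under the 40th percentile (5.09) were left out. Groups were compared with limma 3.58.1 in R 4.3.3 (lmFit, eBayes with a mean-variance trend, two-sided, 2 residual and 6.02 prior degrees of freedom), with Benjamini-Hochberg adjustment over 27022 probe sets and a call at an adjusted p under 0.05. Fold changes and SEs are on the log2(signal + offset) scale. A gene was represented by its tested probe set with the highest mean. All 52 member symbols matched RefSeq by Entrez identifier. Full values were given for called probe sets, and in each subfamily for the 3 genes of highest signal and the largest change. Genes with several symbols on a probe set were not named. The code was tested on simulated data. Alternatives covered the filter, offset, scaling, eBayes settings, probe set choice, a replicate block and each array left out. The members, lists and tests were chosen with earlier results of these data known, and the bacterial control level after seeing the data. The number of arrays limits the precision.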

Additional observations from a re-analysis of the deposited data

How the results depend on the processing

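The main settings called 916 probe sets of the array, 3 P450 probe sets and 2 P450 genes. Offsets of 1 and 50 left the P450 counts as they were. Without the filter on dim probe sets the counts were 308, 1 and 1. Without the mean-variance trend limma called 258 probe sets and 0 P450 probe sets or genes, with 11 of 42 at an unadjusted p under 0.05. A filter at the 60th percentile called 5 P450 probe sets and 4 genes, median centring 7 and 4, and robust eBayes 5 and 4. Each of these 3 settings had 1 higher P450 call. Over all tested probe sets the filter at the 60th percentile called 3.41% higher and 1.67% lower. Median centring called 2.75% and 1.22% of all, 1073 in number, and robust eBayes 3.02% and 1.18%, 1136 in number. With a replicate block the counts were 1943, 14 and 9. Replicate numbers had a correlation of 0.102 and only 2 pairs, so they were not taken to pair the arrays. Leaving out 1 array gave 341 to 2012 probe sets, 0 to 14 P450 probe sets, 0 to 11 P450 genes and a P450 median of -0.447 to -0.169. The counts of 0 came without sham replicate 1 and without sham replicate 2, with 10 and 19 of 42 at an unadjusted p under 0.05, and the lone array was then assumed to vary like the other group. The causes of these shifts were not tested. None of the 3 called P450 values changed sign. With 2 arrays a group, small changes of dim genes cannot be resolved.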
